A study of Mus musculus with 9 samples.

Results

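The clustered protocadherin genes (Pcdha, Pcdhb and Pcdhg) of the mouse lie side by side on chromosome 18 as an alpha, a beta and a gamma cluster. Their chromatin accessibility was read in alphaTC1, a mouse pancreatic alpha cell line, by ATAC-seq, in which a transposase cuts and tags open DNA. Genes were chosen by symbol, which gave 58 genes: 14 alpha, 22 beta and 22 gamma. The regions described are all consensus regions (the shared list of open intervals counted in every library) that overlap the span from the lowest to the highest gene bound with 50 kb on both sides. This gave 33 of 80827 regions in the whole table, 12 nearest to the alpha, 8 to the beta and 13 to the gamma cluster.

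The cells were collected 5 days after transduction with Smndc1 shRNA, with Atrx shRNA or with the empty vector, with 3 libraries of each, all of the same line. Smndc1 is a Tudor-domain protein of the splicing machinery, and Atrx is a chromatin remodeler that acts with Daxx in heterochromatin. The control carried the vector without any shRNA, not an unrelated shRNA, and the labels name no other shRNA for either target. The labels describe the libraries as biological replicates but not as separate transductions, so the p-values measure the spread between these libraries. The study compared each knockdown with empty vector. The knockdowns were also set against each other, and the comparisons share libraries. Accessibility at the Smndc1 or Atrx gene does not report an shRNA's effect, so the knockdown itself was not checked here.

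Clustered protocadherins are cadherin-type cell-surface proteins, best known in neurons, where the isoforms that a cell displays give it a surface identity through like-with-like binding. In the alpha and gamma clusters each variable exon has its own promoter and is spliced to constant exons shared by the whole cluster, whereas each beta gene is a single exon. In neurons most promoters are chosen at random and on each chromosome separately, through looping by CTCF and cohesin to distant enhancers. Enhancers in and beyond the alpha cluster act on alpha genes, and enhancers beyond the gamma cluster act on beta genes. The C-type genes (Pcdhac1, Pcdhac2, Pcdhgc3, Pcdhgc4 and Pcdhgc5) are used more constitutively. Outside the nervous system, and in many tumours, the variable promoters are commonly silenced by DNA methylation.

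Library totals over all regions ran from 5.29 to 8.15 M counts. Levels are counts per M library counts (CPM) after TMM scaling, which corrects for differences in composition between libraries. Replicate 3 stood apart in every group: the strongest 10% of regions held 38.6% of counts in replicate 3 of Smndc1 shRNA, 38.6% in that of Atrx shRNA and 38.8% in that of empty vector, against 43.3% to 48.8% in the other libraries. Of the alpha cell markers reported here, regions were present at a gene end of Gcg, which encodes glucagon, Irx1, Irx2 and, at only 1.2 CPM, Ttr. They were present at 2 of 5 beta cell markers (Mafa and Nkx6-1, not Ins1, Ins2 or Pdx1), 3 of 4 neuron markers (Snap25, Syt1 and Tubb3), 1 of 3 fibroblast markers, 0 of 2 delta cell markers and 0 of 3 immune markers. Neuroendocrine cells also use these neuronal genes. Ins1 and Ins2, which encode insulin, had no region in an alpha cell line. The 2 beta cell markers with a region were nonetheless more open than the alpha cell markers reported here. In empty vector the strongest region had 62.2 CPM at Mafa and 52.4 CPM at Nkx6-1. It had 34.5 CPM at Gcg, 27.9 CPM at Irx1 and 13.1 CPM at Irx2.

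The alpha cluster ran from 36930285 to 37188897, the beta cluster from 37264998 to 37521419 and the gamma cluster from 37661775 to 37841873 on chromosome 18 (mm10). With its flanks the span covered 1011.6 kb, from 36880285 to 37891873. Region density was close to that of the chromosome, at 3.26 regions per 100 kb in the span and 2.79 over chromosome 18. It was 3.87 within the alpha, 3.12 within the beta and 3.33 within the gamma cluster. The outermost regions inside the span were the one at the start of Pcdha1, at 3.53 ± 0.325 CPM in empty vector, and one 41.5 kb past the gamma cluster, at 10.5 ± 4.01 CPM. The nearest regions outside lay 128.2 kb before Pcdha1, at 40.5 ± 8.97 CPM, and 93.2 kb past the gamma cluster, at 44.9 ± 8.36 CPM (SD, n = 3). The flank before Pcdha1 held no region other than the one at the Pcdha1 start, which reached into it. Besides protocadherins the annotated coding genes in the span included Slc25a2, Taf7 and Diaph1. Some gene models with Gm symbols were left aside. All regions past the gamma cluster lay within the bounds of Diaph1, which encodes a formin that assembles actin filaments.

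Few variable genes had an open start. The gene table gives bounds but no strand; in the alpha and gamma clusters the genes share their upper bound almost exactly and differ at the lower one, which is where the variable exons lie, so the lower bound was taken as the start. A region within 1000 bp before to 500 bp after it was present for 15 of 58 genes (25.9%). By the same window, 9520 of 17274 coding genes had a region at any of their annotated starts (55.1%), and 6671 of 21631 had one at the lower bound (30.8%). C-type genes had one in 4 of 5 cases, with Pcdhgc5 the exception, and alpha genes in 4 of 12 (Pcdha1, Pcdha8, Pcdha9 and Pcdha12). Beta genes had one in 6 of 22 (Pcdhb8, Pcdhb10, Pcdhb11, Pcdhb12, Pcdhb17 and Pcdhb21). Gamma A genes had none in 12, and gamma B genes had one in 1 of 7, which was Pcdhgb8, annotated as a transcribed pseudogene. In all, 16 regions lay at a start (Pcdhgb8 had 2), 8 lay inside a cluster away from any start, and 9 lay outside the cluster bounds.

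**Figure D1:**
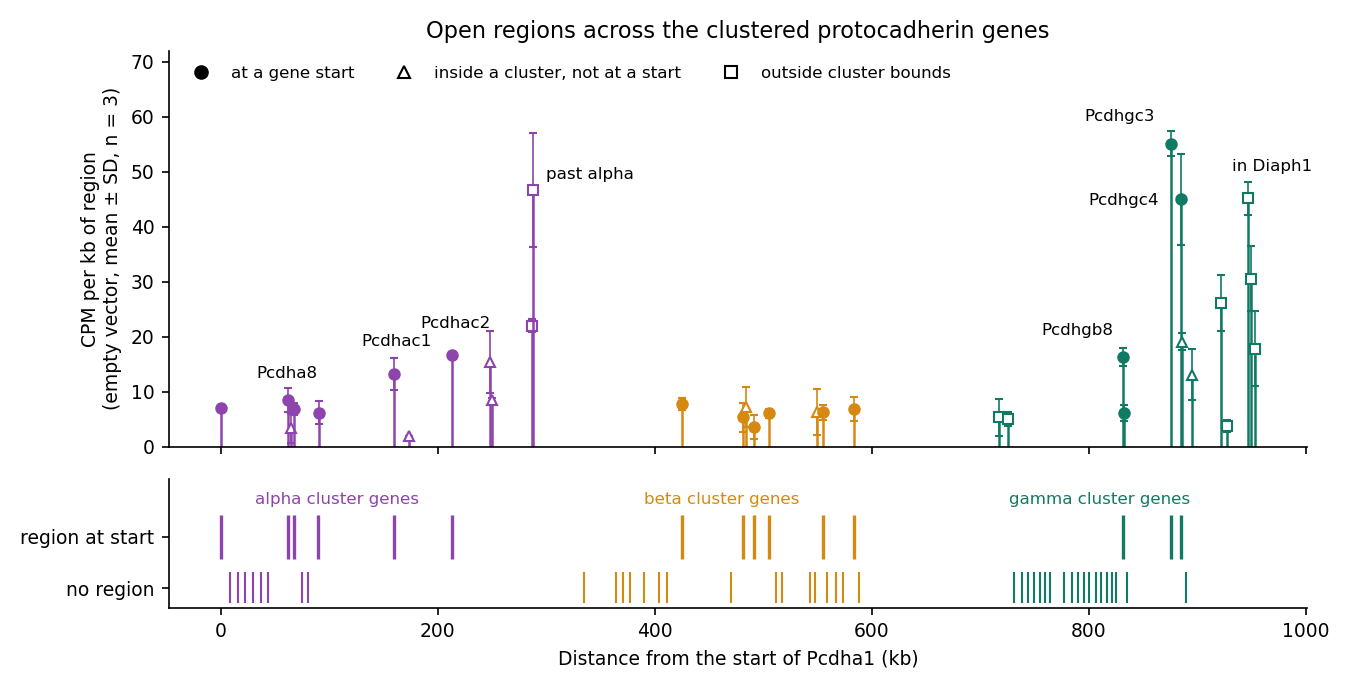
Accessibility across the clusters in empty vector libraries. The upper panel gives CPM per kb of region (mean ± SD, n = 3) against the distance in kb from the start of Pcdha1, by place and coloured by the nearest cluster; the lower panel marks each gene start with or without a region. Pcdhgc3 (55.1 CPM per kb), Pcdhgc4, a region past the alpha cluster and one in Diaph1 stand highest, and every beta region lies below 8 CPM per kb.

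Regions differ in width, so levels are compared per kb of region, in empty vector libraries. Of the 4 places, the C-type starts had the highest median, 30.8 CPM per kb, against 21.99 outside the cluster bounds, 7.88 inside clusters and 6.54 at the other starts. Pcdhgc3 had 55.1 ± 2.32 CPM per kb, above 93.5% of all regions. Pcdhgc4 had 45.0 ± 8.26 CPM per kb, above 90.8%, and Pcdhac2 had 16.6 ± 0.612 CPM per kb, above 70.5%. Pcdhac1 was lowest of the C-type starts, at 13.3 ± 2.87 CPM per kb, above 63.9% (SD, n = 3). The ± SD ranges of Pcdhgc3 and Pcdhgc4 overlapped, as did those of Pcdhac2 and Pcdhac1, although Pcdhgc3 and Pcdhac2 were each the higher per kb in all 3 libraries. All 4 C-type starts stood above the median of all regions, 9.20 CPM per kb.

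The remaining starts were weak. Their median was 6.54 CPM per kb over 12 regions, and 1 of the 12, that of Pcdhgb8 at 16.3 ± 1.601 CPM per kb, exceeded the median of all regions. Pcdha8 followed at 8.57 ± 2.15 CPM per kb, and Pcdhb8 was the most open beta start, at 7.72 ± 1.08 CPM per kb. Pcdhb11 was lowest, at 3.66 ± 2.19 CPM per kb. No beta region of 8 reached the median of all regions. Beta genes are related paralogs, and how reads that match several places were counted is not given in the sources used here. The median coefficient of variation in empty vector was 41.0% over beta regions and 11.3% over C-type starts, against 25.5% over all regions. Beta regions held 5 to 71 counts per empty vector library and C-type starts 43 to 360. The part of low counts, or of reads that match several places, in this spread was not tested.

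Much of the open chromatin lay away from the genes' starts. The 9 regions outside the cluster bounds held 38.1% of the summed CPM of the 33 regions in empty vector, and the 4 C-type starts held 31.1%. The 12 other starts held 18.4% and the 8 regions inside clusters 12.3%. A pair of adjacent regions lay between the alpha and beta clusters, the stronger at 37217931 to 37218589, 29.0 kb past the alpha cluster, with 46.6 ± 10.4 CPM per kb. Of 5 regions in Diaph1, the strongest, at 37877054 to 37877646, 35.2 kb past the gamma cluster, had 45.2 ± 2.99 CPM per kb. Its neighbour, at 37879899 to 37880616, 38.0 kb past the cluster, had 30.5 ± 5.93 CPM per kb. Inside the alpha cluster, regions 34.8 and 36.6 kb past the start of Pcdhac2 had 15.5 ± 5.60 and 8.59 ± 0.238 CPM per kb. Whether any of these regions is one of the known enhancers was not tested.

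Levels in the 9 libraries, given for replicates 1, 2 and 3 in order, overlapped between the groups at most strong regions. Pcdhgc3 had 35, 37.96 and 27.2 CPM with Smndc1 shRNA, 33.7, 28.1 and 24.3 CPM with Atrx shRNA, and 38.7, 37.0 and 35.5 CPM with empty vector. All 3 Atrx shRNA libraries lay below all 3 empty vector libraries, and the Smndc1 shRNA libraries overlapped both other groups. Pcdhgc4 had 36.9, 45.1 and 27.1 CPM with Smndc1 shRNA, 47.1, 36.7 and 29.9 CPM with Atrx shRNA, and 44.9, 46.7 and 32.7 CPM with empty vector. Replicate 3 was the lowest of its group throughout, and the groups overlapped.

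Pcdhac2 had 19.3, 19.0 and 13.9 CPM with Smndc1 shRNA, 14.6, 14.3 and 11.7 CPM with Atrx shRNA, and 17.6, 18.5 and 18.9 CPM with empty vector. The Atrx shRNA libraries were again all below the empty vector libraries, and with Smndc1 shRNA only replicate 3 was. Pcdhac1 had 11.2, 8.64 and 5.92 CPM with Smndc1 shRNA, 8.83, 5.73 and 7.30 CPM with Atrx shRNA, and 6.37, 9.86 and 7.98 CPM with empty vector, and here no group stood apart. The strong region past the alpha cluster had 32.9, 29.0 and 19.1 CPM with Smndc1 shRNA, 42.7, 27.9 and 24.8 CPM with Atrx shRNA, and 35.1, 34.2 and 22.9 CPM with empty vector. It overlapped in all groups.

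The strong regions in Diaph1 had their lowest group means with Smndc1 shRNA. The region 35.2 kb past the gamma cluster had 20.0, 26.8 and 17.9 CPM with Smndc1 shRNA, 25.05, 28.1 and 23.1 CPM with Atrx shRNA, and 27.8, 27.8 and 24.7 CPM with empty vector. Its neighbour at 38.0 kb had 14.6, 19.2 and 11.3 CPM with Smndc1 shRNA, 23.6, 19.7 and 17.4 CPM with Atrx shRNA, and 21.3, 26.5 and 18 CPM with empty vector. With TMM factors, 1 Smndc1 shRNA library in each region reached into the range of empty vector. Among the 10 strongest regions of the clusters, replicate 3 was the lowest of its group at 8 with Smndc1 shRNA, at 10 with Atrx shRNA and at 8 with empty vector. Calls made without the replicate 3 libraries are given after the comparisons.

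**Figure D2:**
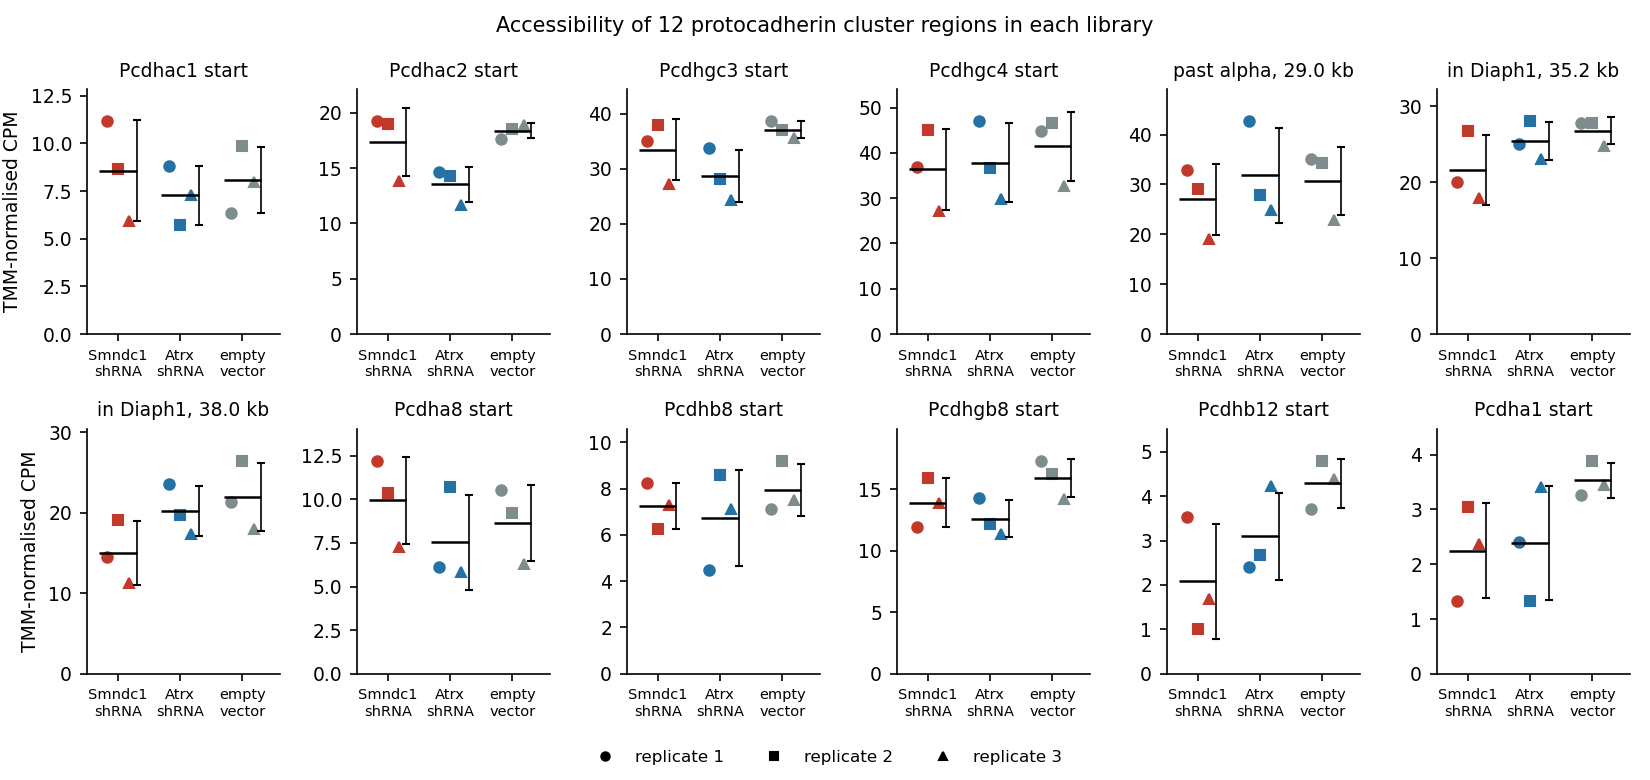
TMM-normalised CPM of 12 regions in each library, with replicates 1, 2 and 3 as circle, square and triangle, the group mean as a line and ± SD as a bar (n = 3). At Pcdhac2 and Pcdhgc3 all 3 Atrx shRNA libraries lie below the empty vector libraries, and at most strong regions the triangle is the lowest of its group.

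The comparison of Smndc1 shRNA with empty vector asked whether accessibility in the clusters differed with the shRNA against the splicing factor. No region of the clusters passed the test. The edgeR quasi-likelihood test, with Benjamini-Hochberg adjustment over the 80345 regions that passed a filter on low counts, called a region at an adjusted p under 0.05. It called 0 of the 32 tested cluster regions, against 0.156% of all tested regions. At an unadjusted p under 0.05 it held 3 of the 32, 2 higher and 1 lower, against 8.09% of all regions; DESeq2 and limma voom also called 0. The untested region, inside the alpha cluster 13.8 kb past the start of Pcdhac1, held 4 to 24 counts per library.

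The median log2 fold change of the 32 regions was -0.19, with 21 negative. Over all tested regions it was 0.02, with 48.2% negative. At the C-type starts the log2 fold change, with its 95% interval, was 0.09 (-0.48 to 0.66) at Pcdhac1 and -0.08 (-0.52 to 0.36) at Pcdhac2. It was -0.15 (-0.63 to 0.33) at Pcdhgc3 and -0.19 (-0.69 to 0.31) at Pcdhgc4. Each of these intervals holds changes of 0.31 log2 units in either direction, so the misses do not show that these starts were alike.

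Larger fold changes were found at weak regions. Pcdhb12, which encodes a beta isoform, had 3.53, 1.02 and 1.69 CPM with Smndc1 shRNA and 3.70, 4.80 and 4.38 CPM with empty vector. Every Smndc1 shRNA library lay below every empty vector library, and the log2 fold change was -1.03 ± 0.54 (SE), with an edgeR adjusted p of 0.644. A region 2.1 kb past the start of Pcdha8 had 5.00, 3.39 and 3.55 CPM with Smndc1 shRNA and 0.296, 2.85 and 1.88 CPM with empty vector. Here every Smndc1 shRNA library was higher, with a log2 fold change of 1.23 ± 0.61 (SE) and an edgeR adjusted p of 0.610. A weak region in Diaph1, 15.4 kb past the gamma cluster, had 3.53, 2.203 and 7.44 CPM with Smndc1 shRNA and 1.78, 1.43 and 2.51 CPM with empty vector, which overlapped. Its log2 fold change was 1.2 ± 0.57 (SE), with an edgeR adjusted p of 0.575. Leaving out 1 library at a time moved these log2 fold changes to between -1.65 and -0.70 at Pcdhb12, the ends being without Smndc1 shRNA replicate 1 and 2. The range was 0.74 to 1.87 near Pcdha8, without empty vector replicate 1 and 2, and 0.59 to 1.52 in Diaph1, without Smndc1 shRNA replicate 3 and 2.

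The strong region in Diaph1, 38.0 kb past the gamma cluster, had a log2 fold change of -0.55 ± 0.23 (SE), with an interval of -1.01 to -0.09 and an edgeR adjusted p of 0.490. The other large values were 0.70 at Pcdhb11, 0.44 at Pcdhb17, -0.66 at Pcdha1 and -0.50 at Pcdhb10, all log2 fold changes that did not pass the test. With TMM factors, groups stood fully apart at 2 regions that were higher, Pcdhb17 and the one near Pcdha8, against 5.76% of all tested regions. They stood apart at 4 that were lower, Pcdha1, Pcdha9, Pcdhb12 and the weaker region between the alpha and beta clusters, against 7.02%.

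The comparison of Atrx shRNA with empty vector asked the same of the shRNA against the remodeler. Again no region of the clusters passed the test: edgeR called 0 of 32, against 0.0% of all tested regions, and DESeq2 and limma voom called 0. At an unadjusted p under 0.05 there were also 0 of 32, against 5.75% of all regions. The median log2 fold change was -0.14, with 22 of 32 negative. Over all tested regions it was 0.01, with 49.3% negative. With TMM factors, groups stood apart at 0 regions that were higher, against 4.83% of all regions, and at 3 that were lower, against 5.65%. These 3 were Pcdhgc3, Pcdhac2 and the region 36.6 kb past the start of Pcdhac2.

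By place, the fold changes with Atrx shRNA were lowest at the gene starts. Over the 16 starts the median log2 fold change was -0.26, with 13 negative. Inside clusters but not at a start it was -0.18, with 5 of 7 negative. Outside the cluster bounds it was 0.05 over 9 regions, with 4 negative. Of all tested regions 49.3% were negative. Pcdhac2 had a log2 fold change of -0.44 ± 0.23 (SE), with an interval of -0.89 to 0.01 and an edgeR adjusted p of 0.881. Pcdhgc3 had -0.37 ± 0.24 (SE), with an interval of -0.85 to 0.11 and an edgeR adjusted p of 0.938. Pcdhac1 had -0.15 (-0.72 to 0.43) and Pcdhgc4 -0.13 (-0.63 to 0.37), all log2 fold changes.

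The remaining extremes against empty vector lay at weak regions with wide intervals. Pcdhb11 had a log2 fold change of 0.61, the region near Pcdha8 0.56, the weak region in Diaph1 0.55 and a region 14.1 kb before the gamma cluster 0.49. Pcdha1 had -0.55, Pcdha9 -0.54, Pcdhb12 -0.47 and the region 1.8 kb past the start of Pcdhb16 -0.46. None passed the test. Pcdha1 had 1.32, 3.05 and 2.37 CPM with Smndc1 shRNA, 2.41, 1.34 and 3.41 CPM with Atrx shRNA, and 3.26, 3.89 and 3.44 CPM with empty vector. It was thus lower than empty vector in all Smndc1 shRNA libraries and in 2 of 3 Atrx shRNA libraries.

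**Figure D3:**
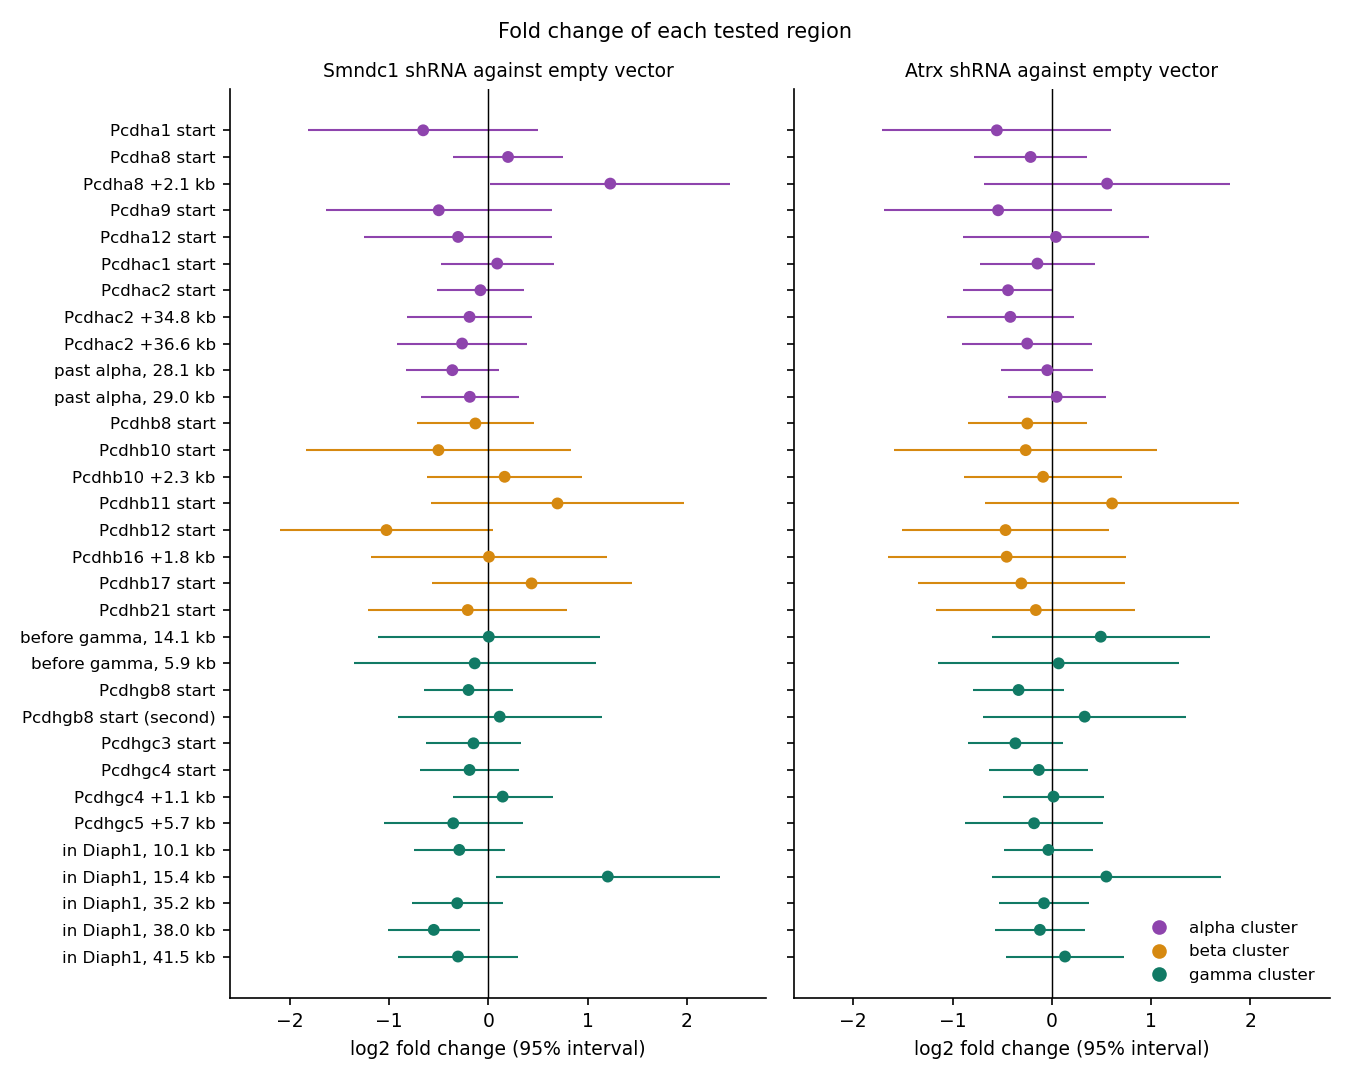
log2 fold change of each of the 32 tested regions (point) with its 95% interval (line) from the edgeR fit with TMM factors, in genome order and coloured by the nearest cluster. With Smndc1 shRNA 21 of 32 points and with Atrx shRNA 22 of 32 lie below 0, against 48.2% and 49.3% of all tested regions. None passed an adjusted p of 0.05.

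With the knockdowns set against each other, no region of the clusters passed the test. Between Smndc1 shRNA and Atrx shRNA edgeR called 0 of 32, against 0.0759% of all tested regions, DESeq2 and limma voom called 0, and 0 of 32 reached an unadjusted p under 0.05, against 5.4%. The median log2 fold change was -0.03, with 17 of 32 negative, against 49.97% negative over all tested regions. Over regions outside the cluster bounds it was -0.26, with 8 of 9 negative, and over the 4 C-type starts it was 0.23. With TMM factors, groups stood apart at 2 regions that were higher with Smndc1 shRNA, against 5.03% of all regions, and at 1 that was lower, against 5.15%.

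The higher ones were Pcdhb17 and the region near Pcdha8, and the lower one lay in Diaph1, 10.1 kb past the gamma cluster. Pcdhb17 had 4.12, 4.07 and 4.57 CPM with Smndc1 shRNA and 1.28, 3.44 and 2.92 CPM with Atrx shRNA, a log2 fold change of 0.74 ± 0.52 (SE). The region near Pcdha8 had a log2 fold change of 0.67, the weak region in Diaph1 0.65 and the region near Pcdhb16 0.46. At the low end were Pcdhb12 with -0.56, the region 14.1 kb before the gamma cluster with -0.49 and the regions in Diaph1 at 41.5 and 38.0 kb with -0.44 and -0.43. All had an edgeR adjusted p of at least 0.971.

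Summed over the 32 tested regions, accessibility was 299.9 ± 42.6 CPM with Smndc1 shRNA, 306.4 ± 25.9 CPM with Atrx shRNA and 336 ± 29.2 CPM with empty vector (SD, n = 3). By library the sums were 318.2, 330.3 and 251.2 CPM with Smndc1 shRNA, 330.3, 310.0 and 278.9 CPM with Atrx shRNA, and 331.1, 367.6 and 309.8 CPM with empty vector. The groups overlapped. Replicate 3 gave the lowest sum of every group. The log2 ratio of the group means was -0.17 for Smndc1 shRNA against empty vector and -0.13 for Atrx shRNA against empty vector. These sums are a description without a test, since the regions were chosen with earlier results of these data known.

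By cluster, the alpha regions summed to 99.6 ± 20.3 CPM with Smndc1 shRNA, 98.5 ± 12.2 CPM with Atrx shRNA and 108.8 ± 11.1 CPM with empty vector. The beta regions summed to 30.2 ± 1.90 CPM with Smndc1 shRNA, 27.5 ± 6.18 CPM with Atrx shRNA and 31.5 ± 5.41 CPM with empty vector. The gamma regions summed to 170.2 ± 25.3 CPM with Smndc1 shRNA, 180.4 ± 19.9 CPM with Atrx shRNA and 195.8 ± 17.1 CPM with empty vector (SD, n = 3). These sums take in regions outside the cluster bounds. They were 7 of the 13 gamma regions, those in Diaph1 among them, and 2 of the alpha regions. In each cluster the libraries of the groups overlapped with TMM factors. With trended offsets, in which a smooth curve of each library against the mean level replaces the TMM factor, the beta sums were 24.7, 28.81 and 26.57 CPM with Atrx shRNA, all below the 29.31, 40.07 and 29.59 CPM with empty vector.

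Sums by place were also only described. They were looked at over several sets of regions, with TMM factors and with trended offsets. How often sums over other regions stand apart was not tested. The sum over the 16 gene starts was 161.3, 166.4 and 129.4 CPM with Smndc1 shRNA, 151.9, 142.6 and 128.4 CPM with Atrx shRNA, and 168.7, 177.3 and 155.3 CPM with empty vector. All Atrx shRNA libraries were below all empty vector libraries, with a log2 ratio of -0.24. The gap was narrow, between 151.9 CPM with Atrx shRNA and 155.3 CPM in empty vector replicate 3. With trended offsets the sums were 144.7, 140.6 and 133.4 CPM with Atrx shRNA and 162.3, 172.9 and 163.2 CPM with empty vector, again without overlap. At the 12 starts that are not C-type the TMM sums were 58.97, 55.76 and 55.32 CPM with Smndc1 shRNA, 47.69, 57.84 and 55.19 CPM with Atrx shRNA, and 61.16, 65.24 and 60.11 CPM with empty vector. Both knockdowns lay wholly below empty vector there, and with trended offsets both overlapped it. At the C-type starts Atrx shRNA overlapped empty vector with TMM factors. With trended offsets it did not, at 91.42, 83.07 and 85.14 CPM with Atrx shRNA and 96.72, 102.7 and 108.3 CPM with empty vector. Regions outside the cluster bounds summed to 106.6 ± 19.1 CPM with Smndc1 shRNA, 128.9 ± 16.1 CPM with Atrx shRNA and 128.5 ± 17.5 CPM with empty vector (SD, n = 3). Those of Smndc1 shRNA overlapped those of empty vector. With trended offsets they were 116.6, 114.0 and 91.17 CPM with Smndc1 shRNA, all below the 135.2, 128.4 and 122.5 CPM with Atrx shRNA.

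**Figure D4:**
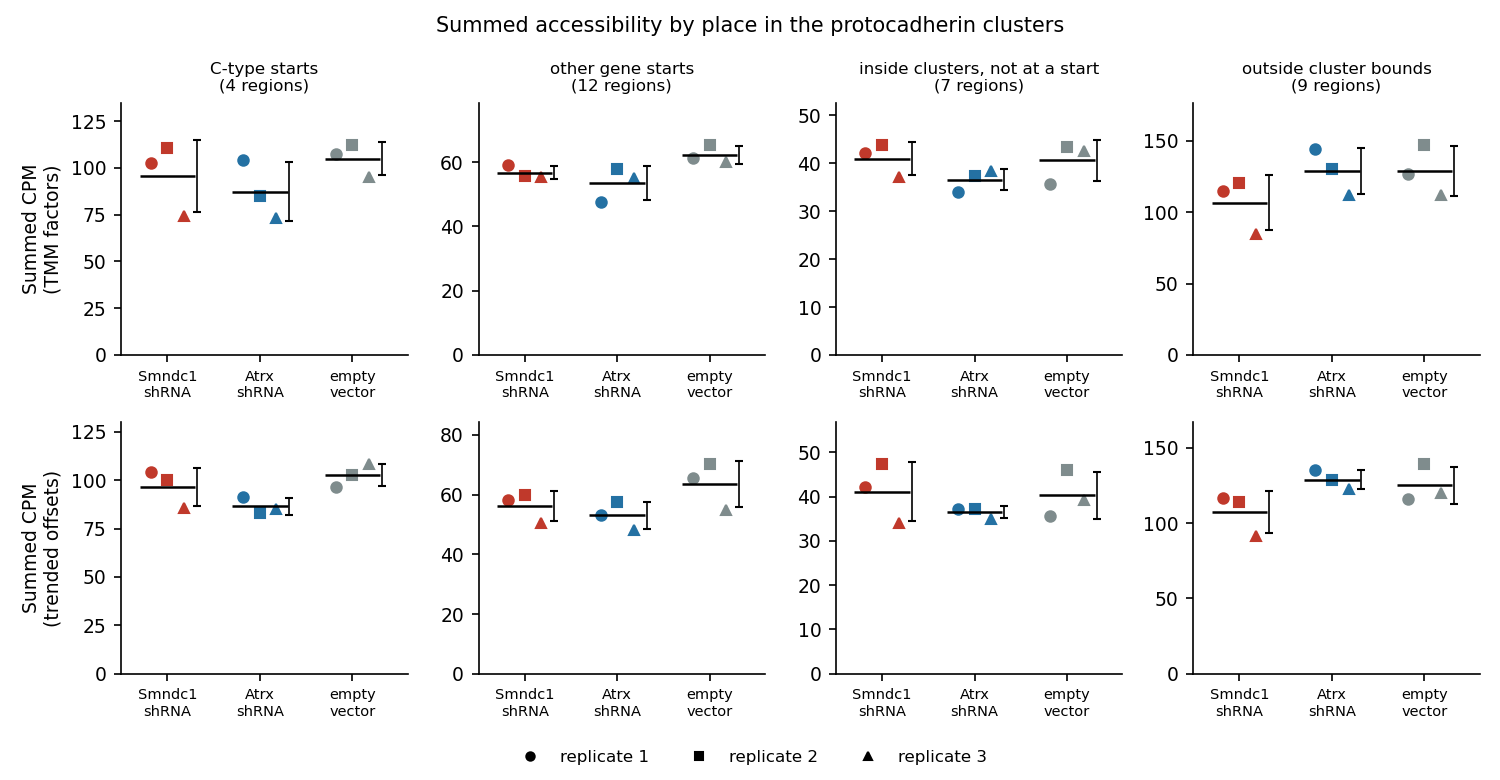
Summed CPM per library over the tested regions of 4 places, with TMM factors (top) and trended offsets (bottom), with the group mean as a line and ± SD as a bar (n = 3). Outside the cluster bounds the Smndc1 shRNA mean is lowest (106.6 CPM, against 128.5 CPM with empty vector). At the C-type starts, at the other starts and inside clusters the Atrx shRNA mean is lowest.

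With trended offsets edgeR called 0 of 32 regions in every comparison. Of all tested regions it called 1.13% for Smndc1 shRNA against empty vector, 0.269% for Atrx shRNA against empty vector and 0.592% for Smndc1 shRNA against Atrx shRNA. Under it Pcdhgc3 had a log2 fold change of -0.36 ± 0.15 (SE) with Atrx shRNA, with an edgeR adjusted p of 0.379. Pcdhb12 had -1.24 ± 0.48 (SE) with Smndc1 shRNA, with an edgeR adjusted p of 0.216. For Smndc1 shRNA against empty vector, groups stood apart under these offsets at 1 higher region, the weak one in Diaph1, against 6208 of 80345 tested. They stood apart at 4 lower ones, against 6786 of 80345. These were Pcdha9, Pcdhb12 and the strong regions in Diaph1 at 35.2 and 38.0 kb. Pcdhb17, Pcdha1, the region near Pcdha8 and the weaker one between the alpha and beta clusters overlapped. Without replicate 3 of all groups, edgeR with TMM factors also called 0 in every comparison.

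Genes that act on the clusters or with their proteins were followed through regions in or within 10 kb of each gene. The insulator and cohesin genes, among them Ctcf, Rad21 and Smc3, which form and hold chromatin loops, had 45 tested regions, of which edgeR called 0 in each of the 3 comparisons. At an unadjusted p under 0.05 there were 1 with Smndc1 shRNA against empty vector, 4 with Atrx shRNA against empty vector and 3 between the knockdowns, against 8.09%, 5.75% and 5.4% of all tested regions. The silencing genes, among them Smchd1, Setdb1 and Dnmt3b, had 52 regions, of which 0 were called, with 4, 3 and 0 at an unadjusted p under 0.05 in the same order, beside the same shares of all regions. DESeq2 and limma voom called 0 regions of either list.

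The partners and processing genes, such as Fyn, Adam10 and the WAVE complex gene Cyfip1, had 68 regions. Against empty vector edgeR called 0 of them with either shRNA, with 5 for Smndc1 shRNA and 6 for Atrx shRNA at an unadjusted p under 0.05, against 8.09% and 5.75% of all tested regions. Between the knockdowns edgeR called 1 of the 68, higher with Smndc1 shRNA, against 0.0759% of all tested regions. It lay at Cyfip1 (chromosome 7, 55910728 to 55911894), with 16.5, 17.1 and 11.3 CPM with Smndc1 shRNA and 5.46, 6.87 and 7.30 CPM with Atrx shRNA. Empty vector had 12.14, 9.73 and 12.68 CPM there, above every Atrx shRNA library and overlapping Smndc1 shRNA. The log2 fold change of this region between the knockdowns was 1.2 ± 0.26 (SE), with an edgeR adjusted p of 0.0367. DESeq2 did not call it (adjusted p 0.207), nor did limma voom (adjusted p 0.137). The call was also lost without Smndc1 shRNA replicate 1 or 2, Atrx shRNA replicate 1 or 2, or empty vector replicate 1 or 2, with edgeR adjusted p from 0.0573 to 0.333.

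The non-clustered protocadherins, single genes elsewhere in the genome that share the extracellular cadherin repeats, had 49 regions at 10 of 12 genes. With Smndc1 shRNA against empty vector edgeR called 1 of the 49 lower and 0 higher, against 0.156% of all tested regions called. The lower region lay at Pcdh9 (chromosome 14, 93350834 to 93351382), with 2.65, 3.90 and 3.38 CPM with Smndc1 shRNA and 9.33, 11.3 and 7.36 CPM with empty vector. No libraries overlapped, and the log2 fold change was -1.50 ± 0.34 (SE), with an edgeR adjusted p of 0.0357. DESeq2 (adjusted p 0.169) and limma voom (adjusted p 0.129) did not call it. The call was also lost without Smndc1 shRNA replicate 1 or 2, Atrx shRNA replicate 2, or empty vector replicate 1 or 2, with edgeR adjusted p from 0.0505 to 0.398. In the other 2 comparisons edgeR, DESeq2 and limma voom called 0 of the 49, and edgeR had 2 for Atrx shRNA against empty vector and 5 between the knockdowns at an unadjusted p under 0.05, against 5.75% and 5.4% of all tested regions.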

How the data were processed

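The authors deposited a table of unscaled whole-number counts, with a row for each consensus region and a column for each library, and a list of region coordinates on mm10 (GRCm38). The tools named in the submitters' processing notes were MACS2 2.2.7.1, bedtools 2.27.1, Bowtie2 2.4.4, deepTools 3.5.1 and SAMtools 2.8.0. What each tool did, and whether reads, fragments or insertions were counted, is not given in the sources used here. Reads were 75 bp paired-end, per the labels' protocols. All count columns matched a sample (0 unmatched). Genes came from a RefSeq table of GRCm38.p6, the same assembly as mm10 for these chromosomes. No sequence is shown for this chromosome.

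Counts were tested with edgeR 4.0.16 (R 4.3.3): filterByExpr with a minimum count of 10 (80345 regions kept, 482 below the filter), TMM factors, robust quasi-likelihood, all 9 libraries in 1 fit and Benjamini-Hochberg adjustment over all tested regions. The script was tested on simulated data. Alternatives were trended offsets (loess, span 0.3), library size only, DESeq2 1.42.0, limma 3.58.1 voom, no filter, a mean count of at least 50, 6 libraries, thresholds of 0.01 and 0.1, each library left out, replicate 3 of every group left out, a replicate block and no flank. Regions named with values were, by rule, those called, the 6 with the highest mean CPM, for each comparison the 4 highest and 4 lowest fold changes at a mean log2 CPM of at least 1, and C-type starts; a few neighbours and the lowest region were named after their values were seen. The members and lists were chosen with earlier results of these data known. No pair of libraries held the same values: within groups, the chi-square per degree of freedom between libraries was 3.12 to 6.77. Intervals are 95% and use the spread between libraries. Some of the alpha cell markers checked are not reported here.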

Additional observations from a re-analysis of the deposited data

How the results depend on the processing

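No alternative called a region of the clusters: all 69 counts over the 3 comparisons and their settings were 0, with at least 13 regions tested and a lowest adjusted p of 0.103. A mean count of at least 50 left those 13, so weak starts went untested there. Of 682 alternative values for 37 fold changes of single regions, 669 kept their direction and 13 turned round, none of which passed the test; the causes were not tested. Without replicate 3 of every group, Pcdhac2 turned to 0.072 (Smndc1 shRNA against empty vector) and the weak region in Diaph1, 15.4 kb past the gamma cluster, to -0.009 (Smndc1 shRNA against Atrx shRNA). Leaving out 1 library at a time gave, for Smndc1 shRNA against empty vector, -0.15 to 0.29 at Pcdhac1, -0.16 to 0.055 at Pcdhac2 and -0.36 to 0.008 at the strong region past the alpha cluster. For Atrx shRNA against empty vector it gave -0.31 to 0.031 at Pcdhac1, -0.32 to 0.016 at Pcdhgc4, -0.22 to 0.20 past the alpha cluster, -0.84 to 0.16 near Pcdhb16 and -0.25 to 0.041 in Diaph1 at 38.0 kb. Between the knockdowns it gave -0.14 to 0.87 near Pcdhb16.

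The log2 ratio of the summed CPM ran from -0.24 to -0.06 over all alternatives for Smndc1 shRNA against empty vector, from -0.19 to -0.06 for Atrx shRNA against empty vector and from -0.10 to 0.08 between the knockdowns, the extremes coming from leaving out 1 library. Same-numbered libraries of different groups deviated from their group means with correlations of -0.02 to 0.44 over 9 pairs, 5 of them over 0.1. Pairs of replicate 3 libraries had 0.343, 0.386 and 0.441. Differently numbered libraries reached 0.33, for Smndc1 shRNA replicate 2 with Atrx shRNA replicate 1. These values do not settle whether the numbers mark pairs, and the main fit used none. The replicate block called 0 regions of the clusters in each comparison. For Smndc1 shRNA against empty vector it lowered the lowest edgeR adjusted p of the clusters from 0.490 to 0.103. With library size only, the Pcdh9 and Cyfip1 calls were lost (edgeR adjusted p 0.0836 and 0.0554). The 95% interval of the log2 fold change for Smndc1 shRNA against empty vector ran from -1.82 to 0.50 at the weak start of Pcdha1 and from -0.69 to 0.31 at Pcdhgc4; the part of depth in this was not tested.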

Other observations

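Other tandem gene clusters were set beside the protocadherins as a description. The Hox genes, which pattern the body axis, had 25 tested regions in or within 10 kb, with a median log2 fold change of 0.15 for Smndc1 shRNA against empty vector and 0.09 for Atrx shRNA against empty vector. The olfactory receptor genes had 181 regions, with medians of 0.08 and 0.23 for the same comparisons. With trended offsets the medians, in the same order, were 0.11 and 0.015 for Hox and 0.03 and 0.12 for olfactory regions. edgeR with TMM factors called 0 regions of either family in any comparison, as did DESeq2 and limma voom. At an unadjusted p under 0.05 it had 1 Hox and 11 olfactory regions with Smndc1 shRNA against empty vector, 0 and 15 with Atrx shRNA against empty vector, and 1 and 8 between the knockdowns, against 8.09%, 5.75% and 5.4% of all tested regions. Trended offsets called 0 Hox and 2 olfactory regions. The one at Olfr1329 was higher with Atrx shRNA than with empty vector (log2 fold change 2.18, edgeR adjusted p 0.0215). It was 1 of 181, against 0.269% of all tested regions. The one at Olfr1347 and Olfr5 was lower with Smndc1 shRNA than with empty vector (log2 fold change -1.65, edgeR adjusted p 0.0301). It was 1 of 181, against 1.13%. In TMM-scaled CPM every Smndc1 shRNA library at Olfr1329 also lay above every empty vector library. Every Atrx shRNA library at Olfr1347 also lay below every empty vector library.

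With trended offsets, 3 further regions of the protocadherin gene lists passed the test. Between the knockdowns trended offsets called 1 of 49 non-clustered protocadherin regions and 2 of 68 partner regions, Cyfip1 included. The share of all tested regions was 0.592%. For Smndc1 shRNA against empty vector they called 1 of 49, at Pcdh9, and 1 of 68, against 1.13%. At Pcdh1, a non-clustered protocadherin on chromosome 18 outside the clusters, accessibility was 36.3, 46.8 and 38.9 CPM with Smndc1 shRNA and 27.3, 34.7 and 22.2 CPM with Atrx shRNA, a log2 fold change of 0.57 ± 0.15 (SE) with an edgeR adjusted p of 0.0354, against 0.855 with TMM factors. At Cyfip2, a WAVE complex gene, it was 15.3, 12.2 and 10.8 CPM with Smndc1 shRNA and 5.30, 6.87 and 7.14 CPM with Atrx shRNA, a log2 fold change of 1.0 ± 0.27 (SE) with an edgeR adjusted p of 0.0429, against 0.157 with TMM factors. Empty vector had 11.85, 10.89 and 10.33 CPM at Cyfip2, above every Atrx shRNA library and overlapping Smndc1 shRNA. At Ptk2, which encodes focal adhesion kinase, it was 58.2, 97.1 and 43.3 CPM with Smndc1 shRNA and 53.5, 60.1 and 35.1 CPM with empty vector, a log2 fold change of 0.43 ± 0.12 (SE) with an edgeR adjusted p of 0.0429, against 0.751 with TMM factors. Without Smndc1 shRNA replicate 2 the log2 fold change at Ptk2 with TMM factors was 0.037. Cyfip2 had 13 regions in all. The strongest of them, another region, had 68.2 ± 8.86 CPM with Smndc1 shRNA and 59.7 ± 4.53 CPM with Atrx shRNA (SD, n = 3). At Pcdh1 and Ptk2 the called region was itself the strongest, of 6 and 15 regions.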
